A study of Mus musculus with 22 samples.

Results

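Heavy polysomal mRNA was compared with total mRNA in the livers of mice culled 4 h after injection of tunicamycin (Tm). Every locus with a complete estimate in all 6 libraries was taken, which gave 39847 of the 39897 loci in the table. Of these, 18145 had no fragment in any of the 6 libraries, 9125 had at least 1 fragment but too few for a test, and 12577 were tested. The tested loci held at least 99.8% of the fragments counted on the chosen loci in each library. The files number the loci (XLOC) without gene names, coordinates or other identifiers. The loci are therefore described by their length, their abundance and their ratio between the fractions, no sequence is shown, and the liver label could not be checked against marker genes.

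The study listed 22 libraries of total and heavy polysomal RNA from the liver of C57BL/6 males aged 5 weeks, in a 0 h group and at 2 h, 4 h and 10 h after Tm was given once into the peritoneum at 0.1 mg/kg. At 4 h there were 3 libraries of each fraction from mice that were all injected in the morning and culled at noon, so the fractions differed neither in strain, sex, age, treatment nor time. The methods give 3 mice per time point and isolate total RNA and polysomes from separate pieces of frozen liver. The 0 h mice were called controls and were culled in the morning, the labels list tunicamycin for them too, and the methods do not say whether they were injected.

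Ribosomes load onto an mRNA in succession and form a polysome, and a sucrose gradient separates mRNAs by how many ribosomes they carry. The heavy fraction was defined here as more than 3 ribosomes. The ratio of polysomal over total abundance of an mRNA is a common measure of its ribosome loading, and an mRNA with a short coding sequence has room for fewer ribosomes. Tm blocks N-linked glycosylation of proteins in the endoplasmic reticulum, and the resulting stress activates the kinase PERK, which phosphorylates eIF2α and lowers translation initiation on most mRNAs while a few escape. Libraries of either fraction are scaled to a common level, so each ratio below is relative to the other mRNAs, and the amount of mRNA on heavy polysomes as a whole was not measured by them.

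The 3 polysomal libraries held 12843966 to 13726378 counted fragments and the 3 total libraries 11636552 to 12377392. The table numbers the libraries of each fraction 0, 1 and 2. Libraries with the same number deviated together from their group means, and they are treated as pairs. The 50 loci without a complete estimate included highly abundant ones, with up to 807130 fragments in a library against at most 307954 for any tested locus. They took 8.96% of the fragments of total library 2, 1.86% of total library 0 and 2.05% of total library 1, while their share of the polysomal libraries was between 4.40% and 5.73%. A locus without an estimate in a library was mostly recorded there with 0 fragments. This held for 372 of 404 such values over the 12 libraries used at 0 h, 2 h and 4 h. Of the 50 loci, 37 were skipped as having too much data in at least 1 library. These shares thus depend on which loci were skipped in each library and do not measure abundance. Total library 2 stood apart in its share, and counts without its pair are given below.

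The composition of heavy polysomal mRNA differed from that of total mRNA at many loci, mostly by a small amount. At an adjusted p under 0.05 and a difference of at least 2-fold, 615 loci were called, 4.89% of those tested (edgeR quasi-likelihood test paired by library number, Benjamini-Hochberg adjustment). Of these, 428 were lower on heavy polysomes (3.40% of tested loci) and 187 were higher (1.49%). With upper-quartile scaling in place of TMM, 606 loci were called, 340 lower and 266 higher, so higher loci made up 43.9% of the calls there and 30.4% here. Lower calls outnumbered higher calls under each scaling tried, by a margin that depended on the scaling. Without pair 2 there were 587 calls, 374 lower and 213 higher. The tissue is bulk liver, so each ratio is taken over all its cell types together, and the part of each cell type in it is not known.

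Differences of less than 2-fold were far more frequent. An unadjusted p under 0.05 was reached by 5887 loci (46.8%). At the adjusted p alone, 4720 loci passed the same test (37.5% of tested loci), 2537 lower (20.2%) and 2183 higher (17.4%) on heavy polysomes. At least 4-fold differences were found at 35 loci (0.278%), 18 lower (0.143%) and 17 higher (0.135%). The fitted log2 ratios of polysomal over total abundance had a median of 0.00, with 5% of loci at or below -0.88 and 5% at or above 0.72. The middle of the distribution was narrow, with quartiles at -0.32 and 0.30. The 3 polysomal libraries lay entirely above or entirely below the 3 total libraries at 5503 loci (43.8% of tested loci), below at 2895 (23.0%) and above at 2608 (20.7%). Among the 615 called loci the fractions did not overlap at 578, of which 410 were lower and 168 higher. The calls were made on these same libraries, so this is largely set by the call.

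**Figure D1:**
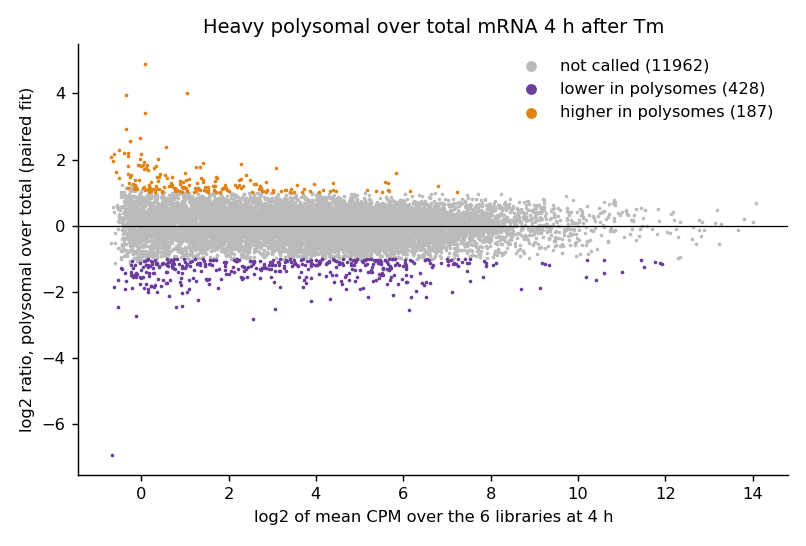
Fitted log2 ratio of heavy polysomal over total mRNA at 4 h (vertical axis) against the log2 of the mean count scaled to library size (CPM) over the 6 libraries (horizontal axis), 1 point per tested locus. The 428 loci called lower are seen at all but the highest levels, while most of the 187 called higher lie at low levels. The lowest point had no polysomal fragment and its height is not a measured ratio.

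The ratios were similar between pairs. Across 9614 loci averaging 50 fragments or more, the median SD of log2 CPM was 0.13 among the total libraries and 0.18 among the polysomal libraries. The median SD of the log2 ratio among the 3 pairs was 0.18. All 3 pairs had the same direction at 7899 tested loci (62.8%). The same held at 610 of the 615 called loci, which is largely set by the call, since it was made on these pairs. Pair 2 gave the widest spread of ratios, with 1247 loci at 2-fold or more against 853 in pair 0 and 896 in pair 1. Across loci, the ratios of any 2 pairs correlated with r between 0.61 and 0.65, a description only, since all loci of a pair share 2 libraries.

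Few tested loci lacked fragments in the heavy polysomal libraries. The 9125 loci with fragments that were too few for a test are not counted here. Only 1 tested locus had no fragment in any of the 3 polysomal libraries, against 43 fragments in the 3 total libraries together. Its ratio is undefined, and its fitted log2 value of -6.94 is not a measured ratio. The fit still called it, so it is counted among the 428 lower loci and the 18 that were at least 4-fold lower. No tested locus lacked fragments in total mRNA, and 2 had at most 3 fragments there. Every other tested locus had at least 1 fragment in both fractions.

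Of the loci lower on heavy polysomes, XLOC_003080 had the smallest p among those with a mean of at least 50 fragments and no overlap of the fractions. Its abundance was 105, 118 and 138 CPM (counts scaled to library size) in total libraries 0, 1 and 2, and 19.9, 23.0 and 18.9 CPM in the polysomal libraries. The polysomal libraries varied little and all lay far below the total libraries. The fitted log2 ratio was -2.54 (SE 0.12) with an adjusted p of 1.286e-08 (edgeR quasi-likelihood, Benjamini-Hochberg), and the 3 pairs gave -2.40, -2.35 and -2.86. This locus was short, with a relative length of 0.119. Relative length is described below and was set to 1 at the median tested locus.

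The largest fall under the same conditions was at XLOC_000336. Its abundance was 12.4, 13.1 and 5.48 CPM in total libraries 0, 1 and 2 and 1.98, 0.511 and 1.71 CPM in the polysomal libraries. Total library 2 held less of it than the other total libraries, but the fractions did not overlap, which was a condition of its choice. In fragments, these values stood for 143, 158 and 58 in total mRNA and for 26, 6 and 23 on heavy polysomes. The fitted log2 ratio was -2.81 (SE 0.32) with an adjusted p of 1.178e-05 (edgeR quasi-likelihood, Benjamini-Hochberg). Its pairs spread more widely, from -4.48 in pair 1 to -1.63 in pair 2, and its relative length was 0.138.

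Of the loci higher on heavy polysomes, XLOC_025360 had the smallest p under these conditions. Its abundance was 25.9, 24.7 and 33.1 CPM in total libraries 0, 1 and 2 and 80.6, 68.2 and 107 CPM in the polysomal libraries. Library 2 was the highest of both fractions. That the lowest polysomal library held more than the highest total library was a condition of the choice. The fitted log2 ratio was 1.60 (SE 0.10) with an adjusted p of 6.984e-08 (edgeR quasi-likelihood, Benjamini-Hochberg), and the pairs gave 1.63, 1.46 and 1.69. Its relative length was 0.459.

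The largest rise under the same conditions was at XLOC_020974, a locus of low abundance. It reached 2.18, 1.25 and 2.93 CPM in total libraries 0, 1 and 2 and 6.62, 7.49 and 8.64 CPM in the polysomal libraries. The fractions were well apart, although total library 1 held only 15 fragments against 88 in its polysomal partner. The fitted log2 ratio was 1.86 (SE 0.23) with an adjusted p of 2.532e-05 (edgeR quasi-likelihood, Benjamini-Hochberg), and its relative length was 0.492.

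**Figure D2:**
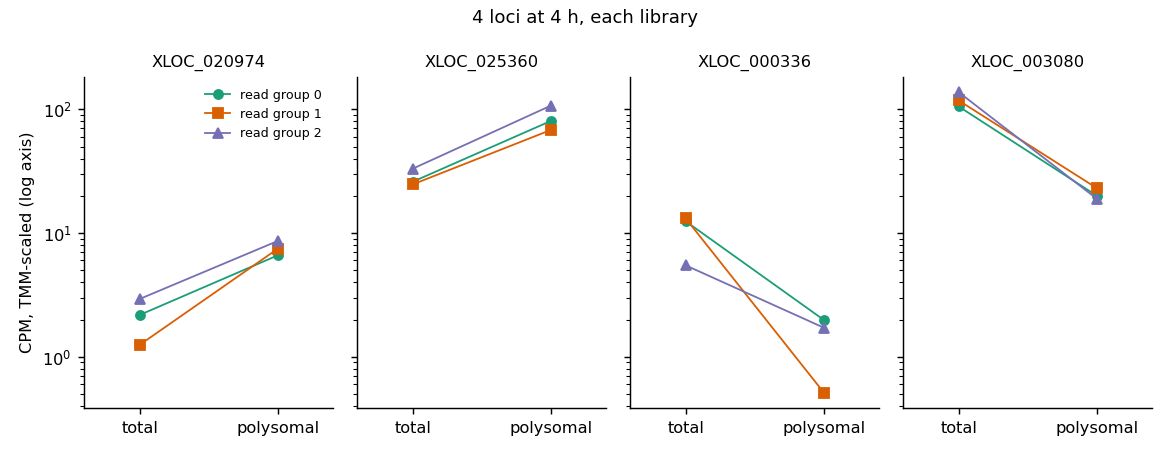
Abundance of the 4 loci in each library at 4 h, in TMM-scaled CPM on a log axis, total on the left and heavy polysomal on the right of each panel, with lines joining libraries of the same read group number. The 4 loci were chosen for no overlap of the fractions, so in each panel the 3 lines run the same way. XLOC_000336 shows the widest spread between pairs.

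The loci called in each direction differed in abundance and in length. The 428 lower loci had a median log2 ratio of -1.22 and the 187 higher loci 1.19, values that the calls themselves set. In the total libraries at 0 h, which had no part in the calls, the lower loci had a median of 14.4 CPM, close to the 16.4 CPM of all tested loci. The higher loci had a median of 1.86 CPM there. A mean of at least 50 fragments over the 6 libraries was reached by 279 lower loci and by 54 higher loci, so most higher calls rested on low counts. When at least 10 fragments were required in each library, 108 higher and 305 lower loci were called.

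A locus could pass the filter on low counts through 1 fraction alone. The tested loci were ranked by CPM in total mRNA at 0 h and divided into 10 abundance classes of equal size. The higher calls fell from 85 in the least abundant class to 42, 25, 11 and 10 in those that followed and to 0 in the most abundant. The lower calls were spread over the whole range, between 28 and 69 in each class, with 54 in the most abundant. The median log2 ratio of the most abundant class minus that of the least abundant class was -0.12 ± 0.15 (SD, n = 3 pairs). This difference was within the spread between pairs (p = 0.25, exact sign-flip permutation test, two-sided, the smallest p that 3 pairs allow). It rested mainly on pair 0, and was -0.03 without that pair.

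The share of fragments taken by the most abundant tested mRNAs depended on how many were counted, and the abundant loci without a complete estimate are not among them. The 100 loci most abundant in total mRNA at 0 h held 34.1% ± 0.586 of the fragments of total libraries and 33.2% ± 0.506 of polysomal libraries (SD, n = 3; p = 0.5, exact sign-flip permutation test over pairs, two-sided, which cannot go below 0.25). The first 10 of these loci held 10.8%, 9.68% and 10.0% of total libraries 0, 1 and 2, and 11.6%, 10.8% and 11.6% of the polysomal libraries. Their share was higher on heavy polysomes in all 3 pairs, by 1.20 percentage points on average (p = 0.25, the smallest possible, same exact test). The first 1000 loci held 66.3% of total and 66.1% of polysomal fragments.

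The calls also varied with locus length. The relative length of a locus was taken from its fragments divided by its FPKM in the total libraries at 0 h. FPKM also carried the corrections made by Cufflinks for fragment bias and for reads mapped to several places. Relative length thus follows the effective length used by Cufflinks only approximately, and was set to 1 at the median. It was available for 12522 of the 12577 tested loci. Loci were divided by it into 10 length classes of about equal size. The shortest class, with relative lengths up to 0.334, held 210 of the 428 lower calls. These were 16.8% of that class, while in each of the other classes between 1.20% and 3.99% of loci were called lower. Higher calls showed no such concentration and were most frequent in class 2, at 3.27%, with 1.52% in the shortest class.

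The median log2 ratio of polysomal over total abundance was low at both ends of the length range and high between them. It was -0.18 ± 0.06 (SD, n = 3 pairs) in the shortest class, where the pairs gave -0.22, -0.21 and -0.11. It rose to 0.13 ± 0.02 in class 2 and 0.16 ± 0.01 in class 3. From there it fell steadily to -0.22 ± 0.06 in the longest class, where the pairs gave -0.19, -0.28 and -0.18. All 3 pairs followed this course, and the longest class minus the shortest gave -0.04 ± 0.06 (SD, n = 3; p = 0.5, exact sign-flip permutation test, two-sided, which cannot go below 0.25). At loci with at least 50 fragments in each library this difference was -0.12 ± 0.08 and had the same sign in all 3 pairs (p = 0.25, same exact test).

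**Figure D3:**
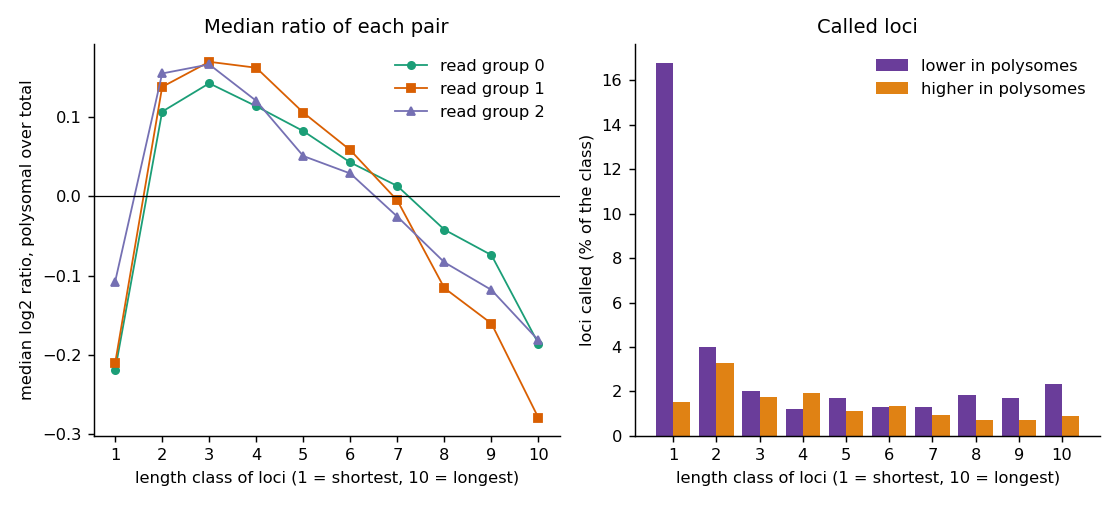
Left, median log2 ratio of heavy polysomal over total mRNA at 4 h in each length class of loci, with 1 line per pair; right, share of each class called lower (purple) or higher (orange), in percent of its loci. The median is below 0 in the shortest class and the 3 longest in all pairs, and lower calls reach 16.8% in the shortest class alone.

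The low median of the longest mRNAs and that of the shortest came from distributions of different width. The SD of log2 ratios across loci was 0.75 in the shortest class and 0.42 in the longest. In the longest class only 29 loci were called lower and 11 higher, but at the adjusted p alone 439 were lower and 63 higher. In length class 3, 159 were lower and 381 higher at the adjusted p alone. Most of the lower loci of the longest class at the adjusted p alone thus differed by less than 2-fold. In the shortest class 438 were lower and 210 higher at the adjusted p alone.

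Within the shortest class the deficit was concentrated in its shortest members. This class was divided again into 5 parts by length. In the shortest part, with relative lengths up to 0.140, the median log2 ratio was -0.62 ± 0.06 (SD, n = 3 pairs), and 87 of 250 loci were called lower (34.8%). The next part, up to 0.202, gave -0.33 ± 0.05, with 62 loci lower (24.8%). The middle part gave -0.14 ± 0.08, with 23 loci lower. In the last 2 parts the medians were 0.01 ± 0.09 and 0.03 ± 0.06, with 19 loci lower in each. The first 2 parts lay below 0 by more than the spread between pairs, and the last 2 did not. The relative length fell to 2.28e-05 of the median at the shortest locus, so it is no direct measure of mRNA length at that end.

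The frequency of lower calls among the shortest loci was found at each level of abundance. With tested loci divided into 3 abundance groups by CPM in total mRNA at 0 h, 77 of 519 loci of the shortest class were lower in the least abundant group (14.8%), 44 of 346 in the middle group (12.7%) and 89 of 387 in the most abundant (23.0%). In length classes 8 to 10, the corresponding shares were 2.84%, 1.14% and 2.08%. The median log2 ratio of the shortest class was -0.16 ± 0.03, -0.12 ± 0.09 and -0.30 ± 0.10 in these groups (SD, n = 3 pairs). In length classes 8 to 10 it was 0.00 ± 0.13 in the least abundant group, with pair 0 at 0.14 and the other pairs below 0, and -0.14 ± 0.03 and -0.21 ± 0.03 in the others. The low ratio of long loci was thus seen in the middle and most abundant groups. When each library was given its own offset along 50 bins of length, which removes the median trend, 329 loci were called lower and 105 of these still lay in the shortest class (32.1%, against 49.3% before). The part of library preparation or fragment size in this trend was not tested.

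As shares of the fragments on tested loci, the ends of the length range behaved differently. Fragments on loci without a complete estimate were not counted in these shares. The longest class took 6.71%, 6.36% and 6.27% of total libraries 0, 1 and 2 and 5.39%, 4.66% and 4.96% of the polysomal libraries. Its share was lower on heavy polysomes in all 3 pairs, by 1.44 ± 0.223 percentage points (polysomal minus total -1.44, SD, n = 3; p = 0.25, exact sign-flip permutation test, two-sided, the smallest possible). The shortest class took 9.16%, 9.54% and 9.54% of total libraries and 8.42%, 9.26% and 9.98% of polysomal libraries, lower on polysomes in pairs 0 and 1 and higher in pair 2 (p = 0.75, same exact test). For the shortest class, the low median ratio of its loci thus did not come with a lower share of fragments beyond the spread between pairs.

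The loci called at 4 h were then followed at 0 h and 2 h. Polysomal RNA at these times has 3 read groups in the table for 2 listed libraries, so only the authors' group means of scaled fragments were used, as the log2 of (polysomal mean + 1) over (total mean + 1), at loci with a mean of at least 10 and without error or test. The libraries at 0 h and 2 h were not used to choose the loci, while the 4 h values are extreme by choice. Time after injection and time of day changed together between these groups and cannot be told apart.

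Most loci called at 4 h had a ratio of the same direction at the earlier times. Of the 187 higher loci, 164 could be followed at 0 h and 160 at 2 h, and 97.6% and 98.8% of them were above 0, against 48.5% and 52.5% of all tested loci. Their log2 ratios had medians of 1.14, 0.92 and 1.11 at 0 h, 2 h and 4 h. Of the 428 lower loci, 384 could be followed at 0 h and 387 at 2 h, and 90.9% and 99.2% were below 0, against 51.5% and 47.5% of all tested loci. Their medians were -0.85, -0.90 and -1.17 at these 3 times. The ratio thus differed in the same direction in the 0 h group for most loci called in either direction.

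Among the lower loci, those of the shortest class and the others had different medians at 0 h and 2 h. The 210 lower loci of the shortest class had median log2 ratios of -0.58, -1.001 and -1.28 at 0 h, 2 h and 4 h. A ratio at or below -1 was found at 46 of 189, 96 of 192 and 190 of 195 of them that could be followed. The 216 lower loci of the other classes had -1.09, -0.83 and -1.12, with 110 of 195, 56 of 195 and 190 of 204 at or below -1. Of all tested loci, 3.86% were at or below -1 at 0 h and 1.82% at 2 h. The median of all followed loci of the shortest class, called or not, moved in the same direction, from 0.33 at 0 h to -0.13 at 2 h. That of the longest class moved from -0.44 to -0.15. The median of the lower loci of the shortest class thus moved in the direction of that class as a whole. Whether any of these differences exceeds the spread between libraries was not tested. In total mRNA, the median log2 change from 0 h to 2 h was -0.05 for the first list, -0.0015 for the second and -0.01 for all tested loci.

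**Figure D4:**
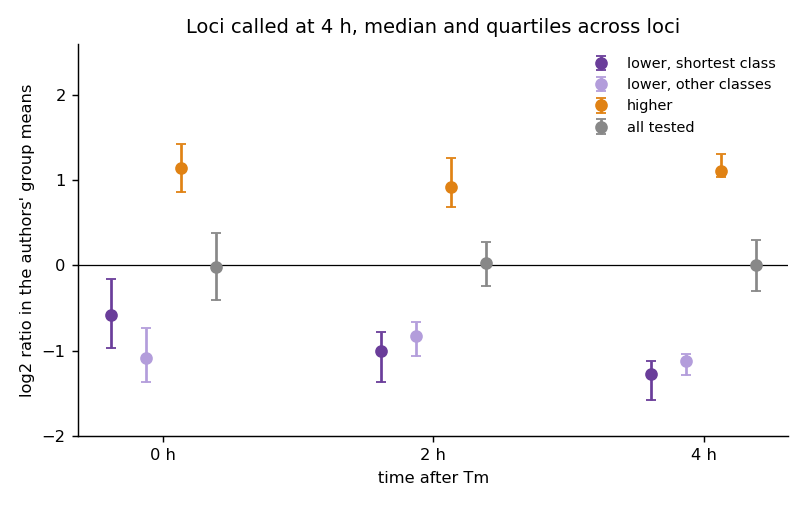
Log2 ratio of heavy polysomal over total mRNA in the authors' group means at 0 h, 2 h and 4 h for the loci called at 4 h; points are medians and bars run from the lower to the upper quartile across loci, not across libraries. The lower loci of the shortest class run from -0.58 to -1.28, while the higher loci stay between 0.92 and 1.14.

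The 4 loci described above had the same direction at all 3 times in these means. XLOC_003080 had log2 ratios of -1.44, -2.02 and -2.53 at 0 h, 2 h and 4 h, while its mean in total mRNA was 1240, 1072 and 1173 scaled fragments. Its polysomal mean was 456.5, 263.7 and 201.8, so its lower ratio at 4 h came with fewer polysomal fragments at a similar level in total mRNA. XLOC_000336 gave -4.23, -3.60 and -2.81, from polysomal means of only 5.67, 14.0 and 13.6 scaled fragments, so its value at 0 h depends on few fragments and on the pseudocount, and no course over time is read from it. XLOC_025360 was at 1.89, 1.56 and 1.61 and XLOC_020974 at 1.60, 1.38 and 1.80.

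The relation with length also had another form at 0 h. In the authors' means at 0 h, the median log2 ratio stood at 0.33 in the shortest class, 0.38 in class 2 and -0.44 in the longest, a fall across nearly the whole range. At 2 h it was -0.13 in the shortest class, 0.12 in class 4 and -0.15 in the longest. At 4 h these means gave -0.15 in the shortest class, 0.18 in class 3 and -0.21 in the longest, close to the values from the single libraries. The shortest loci were thus above the median in the 0 h means and below it at 2 h and 4 h, and the longest were below it at each time, by more at 0 h.

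**Figure D5:**
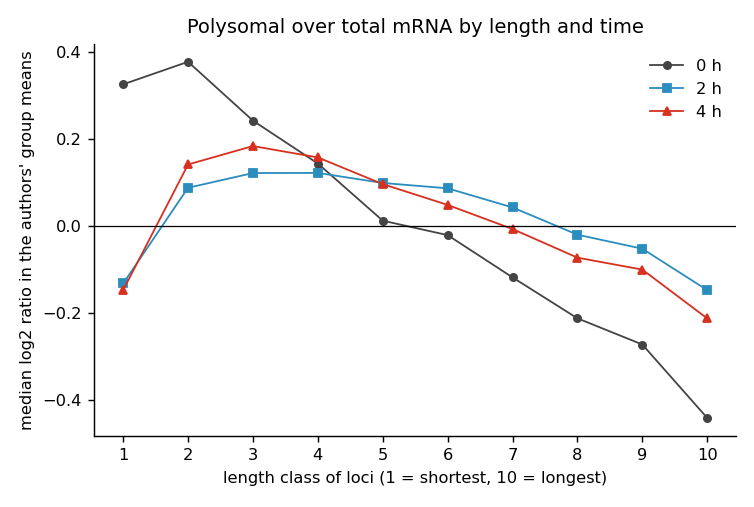
Median log2 ratio of heavy polysomal over total mRNA in the authors' group means, by length class (1 is the shortest), with 1 line each for 0 h, 2 h and 4 h. The shortest class lies at 0.33 at 0 h and at -0.13 and -0.15 at 2 h and 4 h, with no error shown because single means were plotted.

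At 10 h after injection, mice of the same strain, age and dose were measured in a second pool of libraries with its own numbering of loci, so loci could not be matched. There, none of 13195 loci was called by the edgeR quasi-likelihood test without pairs (Benjamini-Hochberg adjusted p under 0.05), with or without a minimum fold, while 911 loci (6.90%) had an unadjusted p under 0.05 and DESeq2 called 63. Libraries of 1 fraction varied more at 10 h, with a median SD of log2 CPM of 0.37 in total and 0.40 in polysomal mRNA against 0.15 and 0.20 at 4 h. The different numbers of calls at 4 h and 10 h came with this difference in spread, and whether the ratios differ between these times was not tested.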

How the data were processed

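Stranded poly(A) libraries were prepared from total RNA and from pooled heavy polysomal fractions. Per the submitters' processing notes, TopHat2 2.0.13, Cufflinks 2.2.1 and GRCm38 were used, and the annotation release is not given in the sources used here. The authors deposited raw fragment counts per locus and read group, with FPKM values, and group means of fragments scaled by library size factors, a signal on a scale common to the libraries of a table. FPKM was used for relative length and as an alternative scale. Columns of fold changes or p-values were not used here. In all, 99 read groups of conditions outside the labelled samples, or of conditions with more read groups than labelled samples, were not used (69 of 81 in the first table, 30 of 36 in the second).

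For the test of counts, edgeR 4.0.16 under R 4.3.3 was used with TMM, filterByExpr and the quasi-likelihood test. A call needed a difference of at least 2-fold and a p under 0.05 after Benjamini-Hochberg adjustment, with the library number as a block. The tables number libraries 0 to 2 and the titles 1 to 3, so each read group is tied to its group but not to a titled library. At 4 h, deviations from the group means correlated across loci with r of 0.282, 0.333 and 0.328 for the same number. Other numbers gave -0.225 to -0.0976, which is not separate evidence, since values were centred on means of 3 libraries. The numbers were taken as pairs on the same-number correlations alone. At 10 h the same numbers gave -0.185 to -0.0695, and no block was used. CPM were scaled by TMM, with a prior count of 1 for log2 values of single libraries. Medians over loci were compared with the pair as unit by exact sign-flip permutation, which with 3 pairs cannot give a two-sided p below 0.25. Descriptions were made in Python 3.11.15 (pandas 2.3.3, numpy 2.4.6).

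Depth was 11636552 to 13726378 fragments per library at 4 h. Reads carry no molecular identifiers. The methods give separate animals as replicates at each time, and do not state which total and polysomal libraries came from the same animal. With the library number as a block, p-values at 4 h measure the spread of the ratio among pairs, not the spread between libraries of a fraction. The main fit at 10 h had no block, so its p-values measure the spread between libraries. As the files pair no names with loci, 4 loci were named: in each direction, among called loci averaging 50 fragments or more and without overlap of the fractions, that with the largest change and that with the smallest p. The comparison, loci and lists were chosen with earlier results of these data known. The edgeR fit with and without the block and the DESeq2 fit with the block were tested on simulated counts. Alternatives were the fit without the block, DESeq2 1.42.0, other scalings, offsets by length, other filters and folds, a test against a 2-fold change, loci of any status, other pseudocounts and rankings, and each pair left out. The block and DESeq2 at 10 h were added after the data were seen.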

Additional observations from a re-analysis of the deposited data

Results flagged for a closer look

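The shortest of 10 length classes of loci lay on opposite sides of the median at 4 h and at 10 h. Here each polysomal library was set against the mean of the total libraries of its time, since libraries at 10 h are not paired, and lengths came from the total libraries of the same time. At 4 h the median log2 ratio of the shortest class was -0.24, -0.19 and -0.07 in the 3 polysomal libraries, with a mean of -0.17 ± 0.09 (SD, n = 3). At 10 h it was 0.55, 0.34 and 0.17, with a mean of 0.35 ± 0.19. Every library of one time was below 0 and every library of the other above it. At 10 h, polysomal library 0, which gave 0.55, had 10797931 fragments, against 25533603 and 19461637 in polysomal libraries 1 and 2. Time and library pool changed together between 4 h and 10 h and cannot be told apart. The difference was not tested, because the tables were normalized separately and number their loci differently. The 10 h libraries also differed more among themselves along the whole range of length, and in the longest class they gave -0.24, -0.01 and 0.25.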

How the results depend on the processing

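The 4 loci described by number kept their direction and stayed past the threshold under the 7 alternatives computed for each. They were chosen as extreme calls in these same libraries, so this was largely set by the choice. Without the replicate block, 570 loci were called, 169 higher and 401 lower, and 558 of these were among the 615 called with the block, so the pairing changed no direction of the split. Leaving out 1 pair gave 587 to 709 calls, 374 to 439 lower and 205 to 271 higher, and 320 loci were called whichever pair was left out. DESeq2 called 480 loci at 4 h, and the scalings, length offsets, the filter at 1 count and loci of any status gave 531 to 723. The number of calls depended most on the minimum fold. With none, 4720 were called (2183 higher, 2537 lower), with 1.5-fold 2227 (901 higher, 1326 lower), and a test against a 2-fold change called 76 (8 higher, 68 lower). With at least 10 fragments in each library, 108 were higher. At 10 h, where the pairing had no basis, 0 loci were called with and without the block and 63 with DESeq2. The difference in median log2 ratio between the longest and the shortest length class was -0.12 at loci with at least 50 fragments in each library, and that between the most and the least abundant class was -0.29 when loci were ranked by the total libraries at 4 h, which are part of the ratio. The share of fragments was 1.20 percentage points higher on polysomes for the first 10 loci, against -0.85 for 100. The causes were not tested, except that fewer loci or a stricter fold leave fewer calls by construction.

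Each fraction had 3 libraries, loci below the filter on low counts were not tested, and some of the most abundant loci had no complete estimate and were left out. The values used here give no gene identity, no coding length and no absolute amount of polysomal mRNA.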
